A study of Mus musculus with 95 samples.

Results

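The comparison described here set 7 striatum libraries of heterozygous mice from a zQ175 line that lacks a neo selection cassette (neo-out) against 8 striatum libraries of heterozygous mice from the zQ175 line that keeps it (neo-in). These 15 libraries were all the heterozygous striatum libraries among the 95 libraries of the series, and they were chosen by their labelled tissue, line and genotype. zQ175 is a mouse model of Huntington's disease in which the first exon of one Htt allele, the gene for huntingtin, carries a long run of CAG repeats. All 15 animals were heterozygous for the expanded allele (Het) on a C57BL6/J background and were sampled at 6 months of age. They were housed with mice of their own line. The neo-in Het group held 4 females and 4 males. The neo-out Het group held 4 females and 3 males, replicates 2 to 4, since the library of male replicate 1 was not analysed here. Left striatum was flash frozen, and RNA enriched for mRNA was sequenced. Wild-type littermates (WT) of the same age and background, 8 per line, were used as the background for a difference between the lines, and cortex and liver of the same animals served as further readouts. Each allele is a strain of its own, so that the cassette, the CAG length and the colony cannot be told apart between the Het groups. The day of dissection is not in the labels, and any difference in it could not be told apart from line either. The replicates were separate animals.

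Huntingtin with an expanded glutamine run lowers the expression of many identity genes of the medium spiny neurons, the projection neurons that make up most of the striatum. The neo cassette is a drug resistance gene left from the targeting of embryonic stem cells. Such a cassette can lower transcription of the gene beside it, and the neo-out line was made to remove it. Cells also keep chaperones in the cytosol and in the endoplasmic reticulum (ER), which fold or refold proteins and are made in larger amounts when misfolded protein builds up.

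The Het libraries held 31095785 to 40330393 expected counts assigned to genes (median 35439272). The summed level of 34 markers shared by medium spiny neurons ran from 12664 to 16515 counts per 1000000 (CPM) over the 15 libraries, against 129 to 240 CPM for 12 markers of cortical excitatory neurons, so the libraries were striatal by their markers. The CAG repeat number given for each animal ran from 181 to 200 in the neo-in Het mice (191 ± 7.59, SD, n = 8) and from 193 to 208 in the neo-out Het mice (200.4 ± 5.94, SD, n = 7). One pair of libraries stood apart from the others. Neo-out Het males 3 and 4 had 30.2 and 13.1 CPM of Hspa1b, the inducible cytosolic Hsp70 chaperone, where the other 13 Het libraries had 1.11 to 4.23 CPM. Results that rest on these males are given with and without them, and none of the genes called with all libraries passed without them.

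Htt itself was somewhat higher in neo-out Het striatum. Neo-in Het libraries held 119.7 to 169 CPM (median 152, mean 149 ± 14.6, SD, n = 8) and neo-out Het libraries 159 to 177 CPM (median 163, mean 166 ± 7.11, SD, n = 7). The ranges overlapped, and 2 of the 7 neo-out libraries lay above every neo-in library. The lowest level, 119.7 CPM, came from neo-in male 4. The difference of the mean log2 CPM was 0.16, and an exact two-sided permutation test of line within each sex, over 2450 arrangements, gave p = 0.0171. Without neo-out male 4 the same exact permutation test gave 0.14 with p = 0.0524. In edgeR's quasi-likelihood fit of all striatum libraries the difference was 0.16 ± 0.05 (log2, SE), a 1.11-fold higher level, with an adjusted p of 0.172 over all genes. Htt in WT striatum was 196 ± 7.03 CPM in the neo-in and 195 ± 16.7 CPM in the neo-out line (SD, n = 8 each), a log2 difference of -0.01 ± 0.05. Htt lies at chr5:34761740-34912534 on the plus strand (mm10), and the gene total does not separate the expanded from the normal allele. Of 32 listed genes that flank Htt on the chromosome, 29 were measured and 0 passed the test. Their median difference was -0.02, with 2505 of all 17703 genes at an unadjusted p under 0.05.

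**Figure D1:**
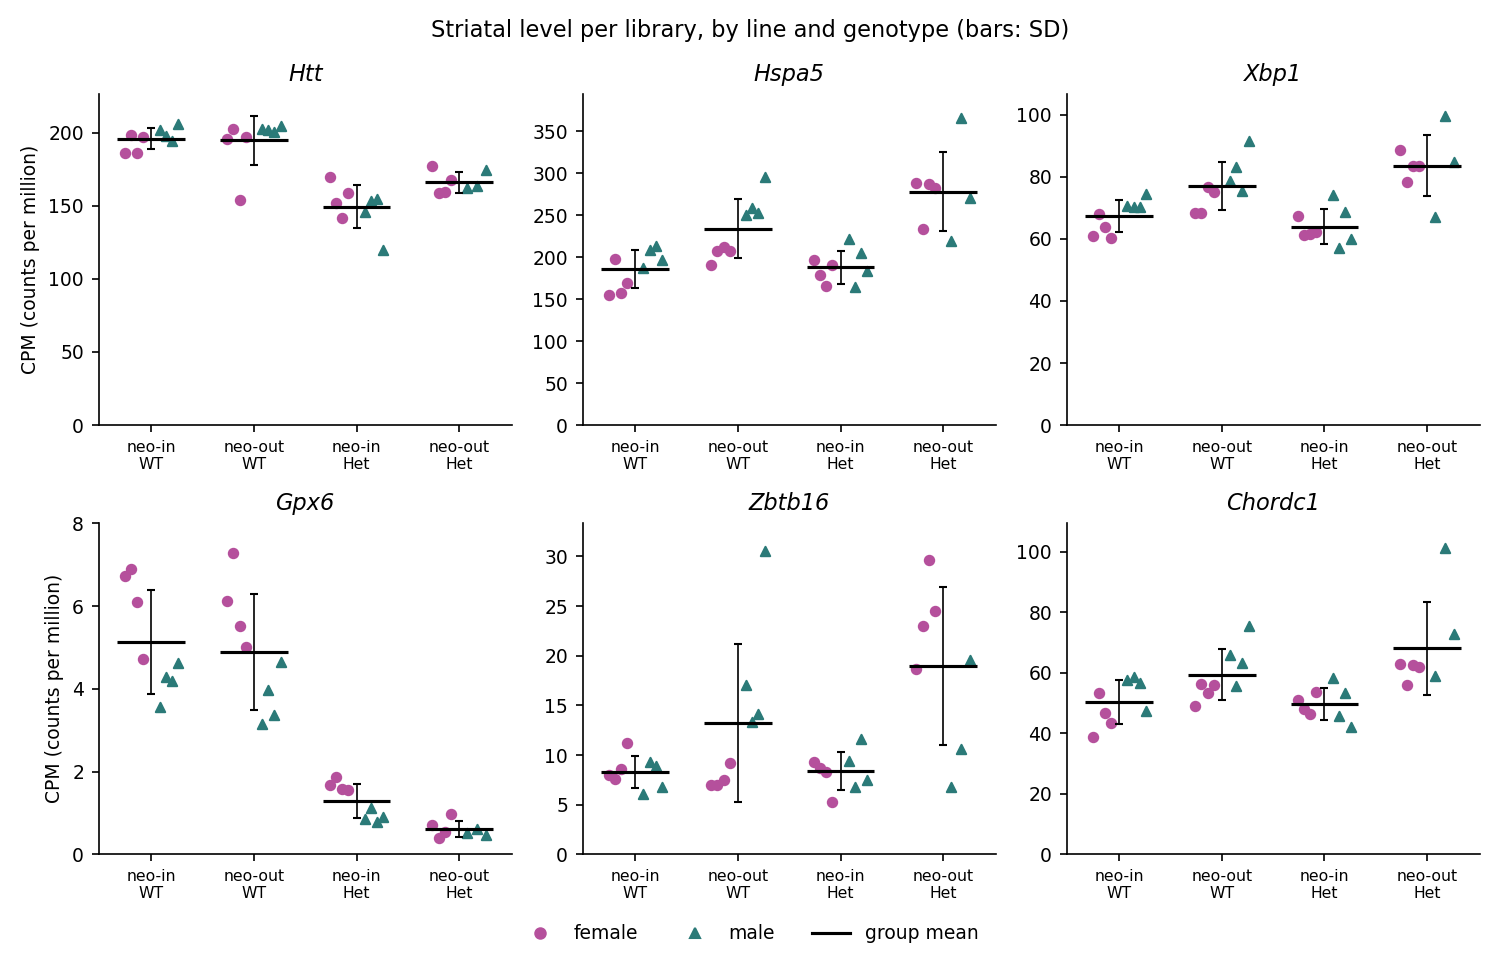
Level of 6 genes in each striatum library, in CPM on a linear axis from 0, for WT and Het mice of both lines; circles are females, triangles males, horizontal lines group means and vertical bars SD. Htt was lower in both Het groups than in WT. For Hspa5, Xbp1 and Chordc1, 6 of the 7 neo-out Het libraries lay above every neo-in Het library, and Gpx6 was lowest in the neo-out Het libraries.

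Over the whole transcriptome, few genes separated the Het lines, and the changes were small. Of 17703 genes tested with edgeR, 67 passed a Benjamini-Hochberg adjusted p of 0.05 (0.378% of genes), 42 of them higher in neo-out Het striatum (0.237%) and 25 lower (0.141%). With limma on log2 FPKM the split was 22 higher and 23 lower. The median size of the 67 changes was 0.33 on the log2 scale, and 4 higher and 7 lower genes changed by at least 1.5-fold. All 67 had the same sign in females and in males. For 10 of the 67 the Het groups did not overlap in any library, as for 19 of all 17703 genes (0.107%). The count depended on the libraries in the fit. It was 0 when only the 15 Het libraries were fitted, where all 67 genes had the same direction and an unadjusted p under 0.05 and the smallest adjusted p was 0.0786. Without neo-out males 3 and 4 it was 1 gene, the dual-specificity phosphatase Dusp18 (log2 difference -0.29 ± 0.05, SE, adjusted p = 0.0411). Dusp18 was not among the 67. All 67 kept their direction without those males, and the median size of their change was then 0.21. The 67 were picked by their difference in these same libraries. Their equal sign in both sexes, and their direction and small unadjusted p in such refits, are therefore largely fixed by that choice. Leaving out 1 Het library at a time gave 13 to 194 genes, and 8 of the 67 passed in all 15 such fits.

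The clearest group among the higher genes was that of ER chaperones and folding enzymes. When unfolded protein builds up in the ER, sensors in its membrane raise the synthesis of chaperones, partly through the transcription factor Xbp1, and a separate branch acts through Atf4 and Ddit3. Of 20 listed genes of the unfolded protein and integrated stress responses, 6 rose, 0 fell and 15 had a positive difference, with a median of 0.16 against 0.00 over all genes. Of all 17703 genes, 0.237% rose and 8965 had a positive difference. The list was chosen with earlier results of these data known, so these counts are not independent of them. The 6 were Hspa5, Xbp1, Manf, Pdia4, Hyou1 and Pdia6. Without neo-out males 3 and 4 the list's median was 0.06. In that fit male 2 alone stands for the neo-out Het males, so much of the value rests on this animal. The list's median was 0.15 in females alone, who include none of these animals, and 0.12 in males.

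Hspa5 encodes BiP, the main Hsp70 chaperone of the ER lumen. Its level ran from 165 to 222 CPM in neo-in Het libraries (median 186) and from 219 to 365 CPM in neo-out Het libraries (median 282). Of the 7 neo-out libraries, 6 lay above every neo-in library; male 2, at 219 CPM, did not. The log2 difference was 0.57 ± 0.08 (SE, edgeR adjusted p = 0.00148), with 0.58 in females and 0.56 in males, and it passed in all 15 fits that left out 1 library. Without both neo-out males 3 and 4 it was 0.38 ± 0.08 (unadjusted p = 6.21e-05, adjusted p = 0.225). Hspa5 is the gene with the smallest p of the comparison.

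Xbp1, the transcription factor of the ER stress response, ran from 57 to 74 CPM in neo-in Het libraries (median 61.9) and from 66.9 to 99.7 CPM in neo-out Het libraries (median 83.6). Again 6 of the 7 neo-out libraries exceeded every neo-in library, and male 2 was the one that did not. Its log2 difference was 0.39 ± 0.06 (SE, adjusted p = 0.00429), and 0.22 ± 0.06 without males 3 and 4. The counts are per gene and do not show how much of the Xbp1 RNA was in its spliced, active form. Manf, a secreted ER protein that protects neurons and is released under ER stress, had 25.1 to 31.9 CPM (median 27.7) against 28.9 to 44.4 CPM (median 35.7), a log2 difference of 0.34 (adjusted p = 0.0168). Pdia4, a protein disulfide isomerase, had 31 to 37.7 CPM against 33.3 to 53.0 CPM, a difference of 0.36 (adjusted p = 0.0282). Pdia6, another isomerase, had 63.7 to 81.4 CPM against 68.1 to 93.2 CPM, a difference of 0.24 (adjusted p = 0.0469). Hyou1, a large ER chaperone that acts with BiP, had 88.9 to 104 CPM against 98.6 to 114 CPM, a difference of 0.17 (adjusted p = 0.0283), and 6 of its 7 neo-out libraries exceeded every neo-in library. Manf lost its call without neo-out male 3 (adjusted p = 0.0855), and Pdia4, Hyou1 and Pdia6 passed in 6, 6 and 4 of the 15 fits. Without males 3 and 4 the differences of Manf, Pdia4, Hyou1 and Pdia6 were 0.17, 0.16, 0.12 and 0.11.

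In the mean over both sexes, members of the other branch did not pass. Atf3, a stress factor of that branch, differed by 0.26 (adjusted p = 0.468), with -0.54 in females and 1.06 in males, where it passed (adjusted p = 0.0293). Atf4, the transcription factor of the branch, differed by -0.01 (adjusted p = 0.959), Ddit3, the stress factor CHOP, by 0.06 (adjusted p = 0.674), and Trib3, a target of that branch, by -0.21 with a standard error of 0.24. Among ER genes that did not pass, Herpud1, of ER-associated degradation, had 0.19 (adjusted p = 0.0741), Sdf2l1 had 0.38 ± 0.12 (adjusted p = 0.151), Creld2 had 0.18 (adjusted p = 0.242) and Hsp90b1, the ER form of Hsp90, had 0.08 (adjusted p = 0.671).

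Promoters of 3 called genes are shown, both that hold the ER stress response element and, as one that does not, Xbp1. The element was searched as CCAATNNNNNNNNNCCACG on both strands, in windows from 250 bases before to 50 after each RefSeq start (GRCm38.p6). It was found in 39 of 32851 promoters (0.119%). Of the 20 listed genes, 18 had a promoter in the table and 5 held the element, namely Creld2, Dnajc3, Hsp90b1, Hspa5 and Pdia6. Among the called members, Manf and Hyou1 had no promoter entry, and 2 of the other 4 held it. The 150 bases before the start are given below in the sense of the gene, with the fixed letters of the element in capitals.
Hspa5, chr2:34771940-34772089, plus strand: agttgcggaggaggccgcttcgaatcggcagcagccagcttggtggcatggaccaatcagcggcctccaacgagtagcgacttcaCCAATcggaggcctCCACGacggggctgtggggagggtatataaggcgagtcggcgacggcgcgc
Pdia6, chr12:17266439-17266588, plus strand: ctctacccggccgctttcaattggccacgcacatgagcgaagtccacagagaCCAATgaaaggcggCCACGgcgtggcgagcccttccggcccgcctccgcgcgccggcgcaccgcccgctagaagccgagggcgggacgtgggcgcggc
Xbp1, chr11:5520491-5520640, plus strand: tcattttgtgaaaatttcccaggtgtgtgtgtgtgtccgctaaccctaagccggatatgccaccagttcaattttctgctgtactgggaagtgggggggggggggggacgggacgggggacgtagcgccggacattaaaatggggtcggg
In Hspa5 the element spanned bases -65 to -47 and in Pdia6 bases -98 to -80, counted from the RefSeq start. These letters were not in the windows of Xbp1 and Pdia4. Creld2, Dnajc3 and Hsp90b1 hold the element, and their striatal differences of 0.18, 0.15 and 0.08 did not pass.

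The same 20 genes were measured in cortex and liver of the same animals, with neo-out males 3 and 4 in every fit. In Het cortex, 227 of 17444 genes passed (1.3%), 137 of them higher (0.785%), and 7 of the 20 rose and 0 fell. Hspa5 differed by 0.35 (adjusted p = 0.0120), Xbp1 by 0.32 (adjusted p = 0.00342) and Sdf2l1 by 0.65 ± 0.13 (adjusted p = 0.0108) in cortex. Creld2 also rose there, by 0.36 (adjusted p = 0.0108). In Het liver, 395 of 15208 genes passed (2.6%), 160 of them higher (1.05%), and 4 of the 20 rose, namely Herpud1, Dnajb9, Ddit3 and Chac1. None of those 4 had passed in striatum. In WT striatum, 83 genes passed (0.469%), with 33 higher (0.186%) and 50 lower (0.282%), and 1 of the 20 rose between the lines, Hspa5, by 0.33 ± 0.08 (adjusted p = 0.0456). WT libraries held 155 to 214 CPM of Hspa5 in the neo-in line and 191 to 295 CPM in the neo-out line. The Het difference of Hspa5 exceeded the WT difference by 0.24 ± 0.11 (unadjusted p = 0.0378, adjusted p = 0.996), and none of the 20 passed this test of the difference.

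**Figure D2:**
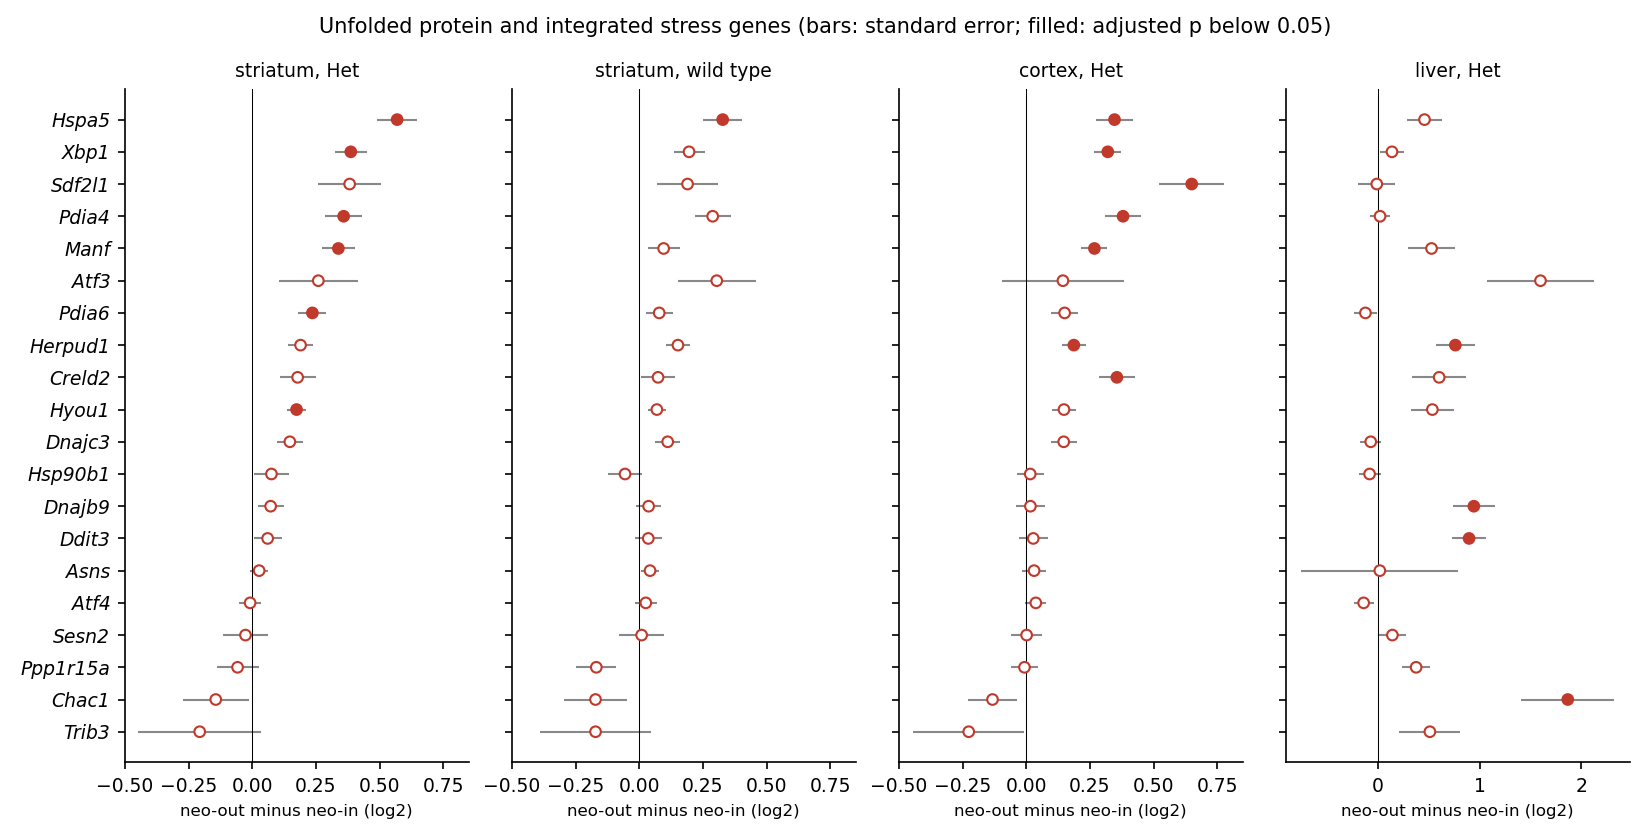
Log2 difference, neo-out minus neo-in, of the 20 unfolded protein and integrated stress response genes in Het striatum, WT striatum, Het cortex and Het liver; bars are standard errors and filled circles passed an adjusted p of 0.05, and the liver axis is wider. The ER chaperones at the top were positive in both brain regions and in WT striatum, where Hspa5 alone passed, while Dnajb9, Ddit3 and Chac1 passed in liver and not in brain.

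Among cytosolic heat shock genes 2 rose, and the highest levels came from neo-out males 3 and 4. These genes encode chaperones that the transcription factor HSF1 turns on when cytosolic proteins unfold. Of 19 listed heat shock genes, 2 rose, Hspa1b and Chordc1, and 17 had a positive difference, with a median of 0.14. Over all 17703 genes, 0.237% rose and 8965 had a positive difference. Hspa1b ran from 1.11 to 2.66 CPM in neo-in Het libraries (median 1.39) and from 1.26 to 30.2 CPM in neo-out Het libraries (median 2.38). Males 3 and 4 held the top values, and 4 of the other 5 neo-out libraries lay within the neo-in range. The log2 difference was 1.92 ± 0.42 (SE, adjusted p = 0.0360), with 0.73 in females and 3.10 in males. Without males 3 and 4 it was 0.19 ± 0.42. Hspa1a, a near-identical copy whose reads the counting could share with Hspa1b, differed by 1.34 (adjusted p = 0.0523), and by -0.22 without those males. Dnajb1, an Hsp40 co-chaperone, ran from 39.4 to 80.4 CPM in neo-out against 34.8 to 44.3 CPM in neo-in Het libraries. Its difference was 0.33 (adjusted p = 0.0782) and 0.09 without the same pair. In WT striatum the line difference was 0.89 ± 0.43 for Hspa1b (adjusted p = 0.440) and 0.29 ± 0.08 for Dnajb1 (adjusted p = 0.120). WT males held 0.789 to 2.89 CPM of Hspa1b in the neo-in and 2.03 to 8.14 CPM in the neo-out line.

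Chordc1, a co-chaperone of Hsp90, differed more evenly. It ran from 41.9 to 58.4 CPM in neo-in Het libraries (median 49.5) and from 55.9 to 101 CPM in neo-out Het libraries (median 62.6). Of the 7 neo-out libraries, 6 lay above every neo-in library, and male 3 was the highest. The log2 difference was 0.46 ± 0.09 (SE, adjusted p = 0.0170), and 0.26 ± 0.09 without males 3 and 4. In WT striatum the line difference of Chordc1 was 0.24 ± 0.09 (adjusted p = 0.252). A heat shock element was searched as GAANNTTCNNGAA on both strands. It was found in 198 of 32851 promoters (0.603%) and in 3 of the 14 listed heat shock genes with a promoter, Chordc1, Hspe1 and Hsph1. Of the called pair, Chordc1 held it and Hspa1b held no match. The Chordc1 window is shown because it held 3 overlapping matches across the RefSeq start, with the fixed letters in capitals; it runs from 130 bases before to 20 after that start.
Chordc1, chr9:18292137-18292286, plus strand: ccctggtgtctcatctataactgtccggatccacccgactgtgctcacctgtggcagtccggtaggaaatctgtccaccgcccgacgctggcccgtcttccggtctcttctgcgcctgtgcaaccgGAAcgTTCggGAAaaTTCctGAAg

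Hspa1b was also measured in cortex and liver of the same animals. In cortex, neo-out Het males 3 and 4 held 36.0 and 13.5 CPM of Hspa1b, where the other 14 Het animals held 6.41 to 9.30 CPM. In liver they held 325.5 and 189.5 CPM, and the liver of neo-out Het male 1, whose striatum was not analysed here, held 75.4 CPM. Neo-out male 2, whose striatum was not high, held 17.4 CPM, and the other 12 Het livers held 2.17 to 8.64 CPM, so all 4 neo-out males lay above every other Het liver.

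Beyond chaperones, the higher genes held single members of several systems. Zbtb16, the transcription factor PLZF, is a gene that glucocorticoids induce. It ran from 5.25 to 11.6 CPM in neo-in Het libraries (median 8.51) and from 6.78 to 29.6 CPM in neo-out Het libraries (median 19.6). All 4 neo-out females, at 18.7 to 29.6 CPM, and male 4, at 19.6 CPM, lay above every neo-in library, while males 2 and 3 lay within the neo-in range. The log2 difference was 1.04 ± 0.19 (SE, adjusted p = 0.0122), 1.60 in females and 0.48 in males. Its adjusted p was 0.0830 without male 4, and its difference was 0.61 without males 3 and 4. Of 16 listed glucocorticoid-responsive genes Zbtb16 alone passed, and the list's median was 0.25, falling to 0.05 without males 3 and 4. Tsc22d3, the glucocorticoid-induced leucine zipper protein, differed by 0.31 (adjusted p = 0.217). Zbtb16 in liver of the same Het animals differed by 2.02 (adjusted p = 0.000118). Its line difference in WT striatum was 0.53 (edgeR unadjusted p = 0.00804) and did not pass. WT males held 6.12 to 9.32 CPM in the neo-in and 13.3 to 30.5 CPM in the neo-out line. WT females held 7.62 to 11.2 CPM in the neo-in and 6.95 to 9.19 CPM in the neo-out line.

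The other higher genes with the largest changes and means over 1 CPM had varied roles. Nostrin, which binds endothelial nitric oxide synthase, ran from 2.41 to 4.66 CPM in neo-in and 3.97 to 7.28 CPM in neo-out Het libraries, a log2 difference of 0.79 ± 0.14 (adjusted p = 0.0113). Banp, a nuclear DNA-binding protein, differed by 0.60 ± 0.12 (adjusted p = 0.0240) and by 0.52 in WT striatum (adjusted p = 0.0350). Both had 6 of 7 neo-out libraries above every neo-in library. Zbtb40, a zinc finger protein, ran from 8.35 to 12.7 CPM against 10.9 to 16.4 CPM, a difference of 0.52 ± 0.08 (adjusted p = 0.00429), and passed in all 15 fits that left out 1 library. Fam135b differed by 0.56 (adjusted p = 0.0424) and Slfn5, of the schlafen family, by 0.42 (adjusted p = 0.0360). Pcsk1, a convertase that cleaves neuropeptide precursors, differed by 0.48 (adjusted p = 0.0414). P4ha2, a collagen prolyl hydroxylase, and Slc5a3, the myo-inositol transporter, each differed by 0.43 (adjusted p = 0.0413 and 0.0293), with 0.22 and 0.19 in females and 0.65 and 0.67 in males. P4ha2 was at 25.2 CPM in both neo-out males 3 and 4 and at 15.1 to 17.5 CPM in the other 5 neo-out Het libraries, beside 11.4 to 17.0 CPM in the neo-in Het libraries. Slc5a3 was at 68.9 and 54.7 CPM in those males, at 35.0 to 43.7 CPM in the other 5 and at 30.4 to 40.3 CPM in the neo-in Het libraries. Without males 3 and 4 the differences were 0.16 for P4ha2, 0.25 for Slc5a3, 0.18 for Slfn5, 0.49 for Nostrin, 0.38 for Banp, 0.36 for Zbtb40, 0.40 for Pcsk1 and 0.68 for Fam135b.

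Among the 25 lower genes, Gpx6 had the smallest p, at a mean of 0.971 CPM over the Het libraries. Gpx6 encodes a glutathione peroxidase whose striatal RNA is known to fall in Huntington's disease models. It ran from 0.778 to 1.86 CPM in neo-in Het libraries (median 1.34) and from 0.401 to 0.980 CPM in neo-out Het libraries (median 0.549), and 6 of the 7 neo-out libraries lay below every neo-in library. Its log2 difference was -1.05 ± 0.16 (SE, adjusted p = 0.00227), with -1.32 in females and -0.78 in males, and it passed in all 15 fits that left out 1 library. Without males 3 and 4 the difference was -1.08 (adjusted p = 0.200). WT striatum held 5.14 ± 1.26 CPM in the neo-in and 4.89 ± 1.41 CPM in the neo-out line (SD, n = 8 each), a difference of -0.08 ± 0.11. The Het and WT differences differed by -0.97 ± 0.19 (unadjusted p = 2.63e-05), which did not pass over all genes (adjusted p = 0.233).

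Ninl, Clec14a and Ccno were the named lower genes whose Het groups did not overlap. Ninl, a ninein-like protein of the centrosome, ran from 6.06 to 8.06 CPM in neo-in Het libraries (median 6.58) and from 3.35 to 5.47 CPM in neo-out Het libraries (median 4.98). Its difference was -0.55 ± 0.09 (SE, adjusted p = 0.00429), and it was also lower in Het cortex, by -0.34 (adjusted p = 0.00181). Clec14a, a lectin of endothelial cells, ran from 3.36 to 5.05 CPM against 2.25 to 3.06 CPM, a difference of -0.53 ± 0.09 (adjusted p = 0.00616). It was lower in Het cortex as well, by -0.78 (adjusted p = 0.00342), and in WT striatum, by -0.37 (adjusted p = 0.0412). Ccno, a cyclin O that is needed in multiciliated cells, ran from 2.34 to 3.37 CPM against 1.24 to 2.09 CPM, a difference of -0.67 ± 0.12 (adjusted p = 0.0113), and -0.60 in WT striatum (adjusted p = 0.00592). Ninl and Clec14a passed in all 15 fits that left out 1 library, and Ccno lost its call without neo-out male 3 (adjusted p = 0.0683). Without both males 3 and 4 the differences of Ninl, Clec14a and Ccno were -0.52, -0.49 and -0.54.

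The other named lower genes fell by 0.40 to 0.73 on the log2 scale. Oacyl (-0.73), the serine protease Prss56 (-0.73) and Spaar (-0.70), which encodes a small regulatory polypeptide, were at a median of 1.09 to 1.92 CPM in neo-out Het libraries. Mas1, a receptor of the angiotensin system that neurons of the striatum express, ran from 2.31 to 4.06 CPM against 1.58 to 2.45 CPM (-0.58 ± 0.13, adjusted p = 0.0360), and was also lower in WT striatum, by -0.48 (adjusted p = 0.0356). Aox1, an aldehyde oxidase, and Bcl2l11, the pro-apoptotic protein BIM, both differed by -0.45 (adjusted p = 0.0360 and 0.0469). Zfp46, a zinc finger protein, had -0.40 (adjusted p = 0.0113), with 37.6 and 45.3 CPM in neo-out males 3 and 4, 50.2 to 59.0 CPM in the other 5 neo-out and 53.9 to 73.6 CPM in the neo-in Het libraries. The remaining 2 were 6330418K02Rik (-0.50) and Gm17276 (-0.40), annotated as antisense to other genes; since it is not stated whether counting used strand, their values are uncertain. Without males 3 and 4 the differences were -0.30 for Zfp46, -0.62 for Oacyl, -0.55 for Prss56, -0.59 for Spaar, -0.73 for Mas1, -0.47 for Aox1, -0.42 for Bcl2l11, -0.44 for 6330418K02Rik and -0.36 for Gm17276.

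Genes that the expanded allele strongly lowers had negative differences between the Het groups, of which 1 passed. Of 11 listed genes that Het striatum has at strongly lowered levels, a list picked with the Het levels of these same libraries known, 1 fell, Gpx6, and all 11 had a negative difference with a median of -0.28. In WT striatum 1 of the 11 fell between the lines, Slc4a11, and 10 of the 11 were negative there too, with a median of -0.12. Penk, the precursor of enkephalin in indirect pathway neurons, ran from 577 to 642 CPM in neo-in Het libraries (median 606) and from 474 to 607 CPM in neo-out Het libraries (median 516). Of the 7 neo-out libraries, 5 lay below every neo-in library, and the difference was -0.20 ± 0.05 (SE, adjusted p = 0.0741). Adora2a, the adenosine receptor of the same neurons, ran from 122 to 164 CPM against 103 to 133 CPM (-0.29 ± 0.08, adjusted p = 0.0815). Slc4a11, a membrane transporter, differed by -0.52 ± 0.13 in Het (adjusted p = 0.0638) and by -0.45 ± 0.10 in WT striatum (adjusted p = 0.0448). Scn4b, a sodium channel subunit, had -0.20 (adjusted p = 0.202), and Ddit4l had -0.28 (adjusted p = 0.151). In bulk tissue, fewer cells of a type and less RNA per cell cannot be told apart.

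In broader lists of neuron identity no gene passed. Of 34 markers shared by medium spiny neurons, 0 passed and 3 were positive, with a median of -0.05. Of 9 direct pathway markers 0 passed (median -0.08), and Drd1, the dopamine receptor of those neurons, was at 182 ± 15.9 CPM in neo-in and 174 ± 24.2 CPM in neo-out Het libraries (SD, n = 8 and 7), a difference of -0.06 ± 0.07. Of 7 measured indirect pathway markers 0 passed (median -0.11). The same 34 shared markers had a median of -0.10 between the lines in WT striatum, where 0 passed as well. Against their own WT littermates, 31 of these 34 fell in neo-in Het and 29 in neo-out Het striatum, with 3437 genes called in the former (19.4%; 10.7% lower) and 3185 in the latter (18%; 9.28% lower). Of 18 immediate early genes, which neuronal firing turns on, 0 passed (median -0.13). Of 22 beta protocadherins 0 passed (median 0.08), and of 16 genes of proteins that bind huntingtin 0 passed (median 0.06).

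Few markers of other cell types passed between the Het groups. Of 20 oligodendrocyte and myelin genes 0 passed and 1 was positive (median -0.09). Of 15 astrocyte and 15 microglia genes 0 passed (medians -0.05 and -0.01). Of 15 endothelial and mural genes 1 fell, Slco1a4, a transporter of the blood-brain barrier, which ran from 59.4 to 83.1 CPM against 58.2 to 66.3 CPM (-0.23, adjusted p = 0.0326, and -0.17 without neo-out males 3 and 4). Its line difference in WT striatum was of like size, at -0.25 (edgeR unadjusted p = 9.71e-06). The list's summed level ran from 524 to 594 CPM in neo-in and 532 to 590 CPM in neo-out Het libraries. Cldn5, which defines endothelial tight junctions, differed by -0.33 (adjusted p = 0.214). Clec14a and Nostrin, named above, are genes of the same cells and differed in opposite directions. Among 11 choroid plexus, 12 cortical excitatory, 12 measured interneuron and 5 blood genes 0 passed, and choroid plexus genes summed to 33 to 109 CPM in the Het libraries.

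Nothing passed in several other systems known to touch Huntington's disease. These were 14 genes of mismatch repair, which sets how fast the CAG run grows in tissue (median -0.04), 20 Polycomb genes (median -0.02), 12 measured developmental genes that Polycomb silences (median 0.03), 19 interferon-responsive genes (median -0.05), 37 genes of oxidative phosphorylation (median -0.02) and 25 of cholesterol synthesis (median 0.04). Of the cholesterol list 7 rose between the lines in WT striatum, where 0.186% of all genes rose. The count of genes called in WT striatum went to 0 with a liver clock covariate, as given below. Of 8 genes that differ between C57BL/6 substrains 0 passed (median 0.09). Of 13 genes of activity and neurotrophin signalling 1 rose, Pcsk1.

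The line difference of WT littermates shared no library with the Het comparison, although both come from the same pair of colonies. Of the 67 genes, 66 had the same sign in WT striatum (98.5%), against 64.1% of all 17703 genes, and 48 of them had an unadjusted p under 0.05 there. The exception was Fam135b, at -0.04 in WT. Those called in both genotypes numbered 10. The median size of the change over the 67 was 0.33 in Het and 0.18 in WT striatum, where the larger Het value is partly fixed by the choice of genes that passed in Het. In Het cortex of the same animals 61 of 65 measured genes had the same sign (93.8%, against 65.4% of all genes) and 20 passed. In Het liver 47 of 60 had the same sign (78.3%, against 52.0%) and 9 passed. A test of whether the line difference itself differed between Het and WT striatum called 1 gene (0.00565%), and it was not one of the 67.

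**Figure D3:**
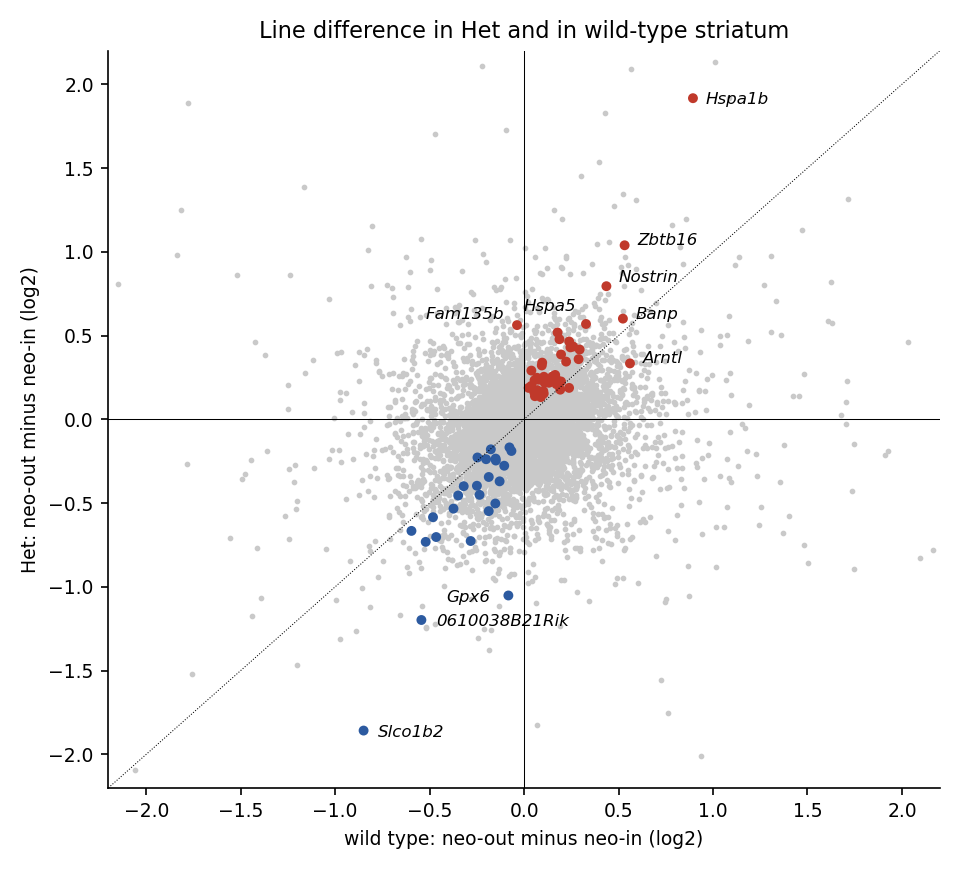
Each point is a gene, with its log2 difference neo-out minus neo-in in WT striatum on the horizontal and in Het striatum on the vertical axis; genes called in Het are red where higher and blue where lower, and the dotted line marks equal differences. Of the 67 coloured genes 66 lie in the quadrants of equal sign; Gpx6 and Fam135b lie close to the vertical axis, and Slco1b2 and 0610038B21Rik, which passed with means under 1 CPM, are at the bottom.

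That gene was Nr1d1, which encodes the clock repressor REV-ERB alpha. In Het striatum it was at 64.8 ± 6.58 CPM in the neo-in and 69.3 ± 4.53 CPM in the neo-out line (SD, n = 8 and 7), and in WT striatum at 91.2 ± 11.2 and 63.2 ± 4.20 CPM (SD, n = 8 each). The Het difference of 0.09 and the WT difference of -0.53 differed by 0.62 ± 0.08 (adjusted p = 0.000485). Of the other clock genes, Arntl, the activator BMAL1, rose by 0.33 in Het (adjusted p = 0.0240; 0.29 without neo-out males 3 and 4) and by 0.56 in WT striatum (adjusted p = 7.2e-06). Dbp, a clock output factor, had -0.24 in Het (adjusted p = 0.102) and fell by 0.65 in WT striatum. Of 21 clock genes Arntl was the only one that passed in Het. A clock score from liver of the same animals, high where Dbp-phase genes are high, had a median of 0.21 in neo-in Het, 0.45 in neo-out Het, 1.65 in neo-in WT and -1.94 in neo-out WT mice. With this score as a covariate the Het count was 74, of which 65 were among the 67, whereas the WT count went from 83 to 0 and Nr1d1 no longer passed. The score ran from -0.318 to 2.56 in neo-in WT and from -3.96 to -1.68 in neo-out WT mice, without overlap. In WT mice this fit therefore cannot separate the score from line, and why those calls were lost was not tested. The score of the Het groups overlapped.

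For a few genes the Het line difference also varied between the female and the male groups. Each group of line, genotype and sex carries its own animal code, so sex cannot be told apart from other differences between these groups. The repeat number, given below, differed between the Het lines mainly in females. A test of the female minus the male difference called 4 genes (0.0226%). Apold1, an early response gene of vascular endothelium, ran from 6.20 to 14.5 CPM in neo-in females and from 2.57 to 3.81 CPM in neo-out females. In males the order was turned, with 3.26 to 4.83 CPM in neo-in and 5.82 to 12.4 CPM in neo-out Het libraries. The groups overlapped in neither sex, and the female minus male difference was -2.89 ± 0.46 (log2, SE, adjusted p = 0.0143). In cortex of the same Het animals Apold1 ran from 7.68 to 12.9 CPM in neo-in females, 3.95 to 5.99 CPM in neo-out females, 3.75 to 5.07 CPM in neo-in males and 6.53 to 17.0 CPM in neo-out males, the same order. In their liver the ranges overlapped in both sexes, at 0.931 to 1.37 and 1.07 to 1.31 CPM in neo-in and neo-out females and at 0.818 to 1.26 and 0.629 to 5.21 CPM in neo-in and neo-out males.

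The other 3 genes were Fbxo30, which encodes an F-box protein of a ubiquitin ligase (-0.74), Ccdc117 (-0.92) and the long non-coding RNA Gm21781 (0.77), each with an adjusted p of 0.0148. Ccdc117 was at 25.4 to 41.0 CPM in neo-out males and at 16.5 to 22.5 CPM in all other Het libraries. It lies at chr11:5528887-5542187 on the minus strand, 2993 bases from the end of Xbp1 on the plus strand. Without neo-out male 3, 0 genes passed this test. Fos, the immediate early gene, had 17.0 to 20.4 CPM in neo-in females, 4.23 to 11.5 CPM in neo-out females, 3.95 to 17.0 CPM in neo-in males and 10.5 to 19.0 CPM in neo-out males, and its female minus male difference of -2.19 did not pass (adjusted p = 0.207). Egr2, another gene of that class, had -1.79 (adjusted p = 0.262). All 18 immediate early genes listed had a negative value in this test, with a median of -0.82 against 0.01 over all genes. Taken alone, the females differed between the lines in 4 genes (0.0226%), Gpx6, Zbtb16, Ninl and Hspa5, and the males in 58 (0.328%). The male contrast has 3 neo-out libraries, of which males 3 and 4 are the pair high in Hspa1b, and its calls included Hspa1b (3.10), Hspa1a (2.49, adjusted p = 0.0143), Dnajb1 (0.68, adjusted p = 0.0143), Chordc1 (0.64) and Atf3 (1.06).

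**Figure D4:**
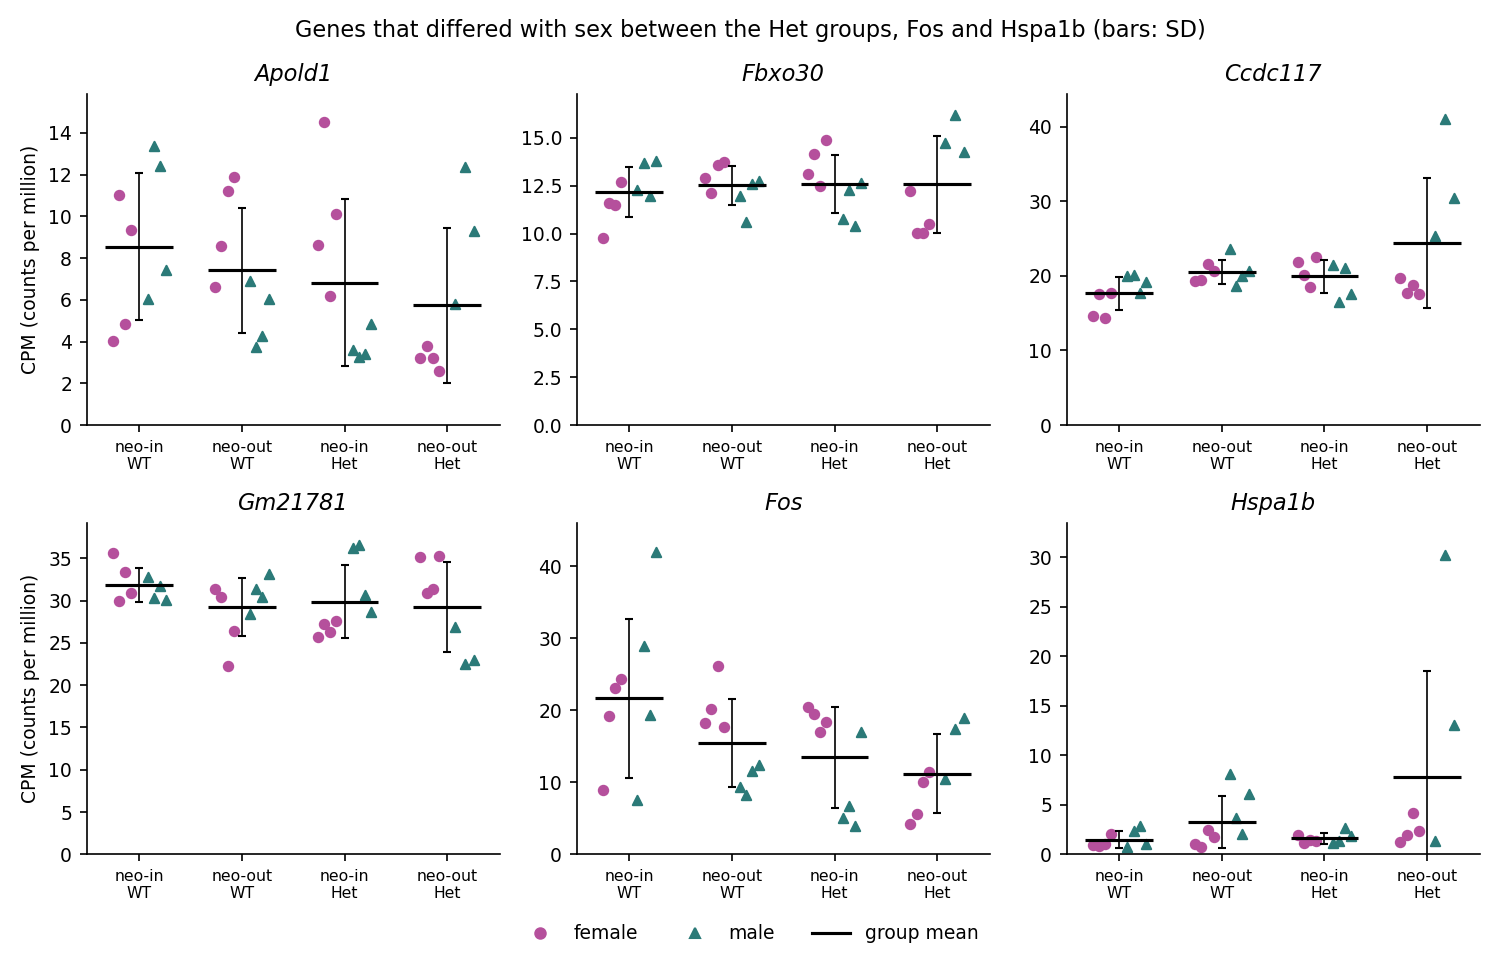
Striatal level in CPM of the 4 genes whose line difference differed between Het females and males, with Fos and Hspa1b, in every library of both genotypes; circles are females, triangles males, lines group means and bars SD. Among females Apold1 and Fbxo30 were lower in the neo-out Het group, among males they were higher in it, and the highest Ccdc117 and Hspa1b values came from neo-out Het males.

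The repeat number differed between the groups mainly in females. Neo-in Het females had 181 to 189 repeats and neo-out Het females 193 to 208, with no overlap, while neo-in males had 195 to 200 and neo-out males 194 to 204. Within the groups of line and sex, the slope of expression on repeat number passed for 0 of 17234 genes by edgeR, with 379 at an unadjusted p under 0.05, and for 0 by DESeq2. When the 15 Het libraries were fitted with the repeat number as a covariate, 0 genes passed the line difference, as without it. All 67 genes kept their direction in that fit, 57 with an unadjusted p under 0.05, and the median size of their change was 0.27. The direction is largely fixed, since the 67 were picked by their difference in these same libraries. With the covariate Hspa5 differed by 0.44 ± 0.13, Gpx6 by -1.27 ± 0.26 and Htt by 0.23 ± 0.08 (SE). Neo-in males, at 195 to 200 repeats, lie beside neo-out females 1 and 2 and male 2, at 193, 196 and 194 repeats. These few animals differ in sex as well as line, and they do not separate repeat number from line. Gpx6 had a mean of 1.67 CPM in neo-in Het females and 0.917 CPM in neo-in Het males. WT females also held more than WT males, at means of 6.12 and 4.16 CPM in the neo-in line. In the neo-out line the WT means were 5.98 and 3.79 CPM. Hspa5 was at 165 to 222 CPM in the neo-in Het males and at 288, 233 and 219 CPM in neo-out Het females 1 and 2 and male 2. Gpx6 was at 0.778 to 1.12 CPM in the former and at 0.713, 0.401 and 0.518 CPM in the latter.

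**Figure D5:**
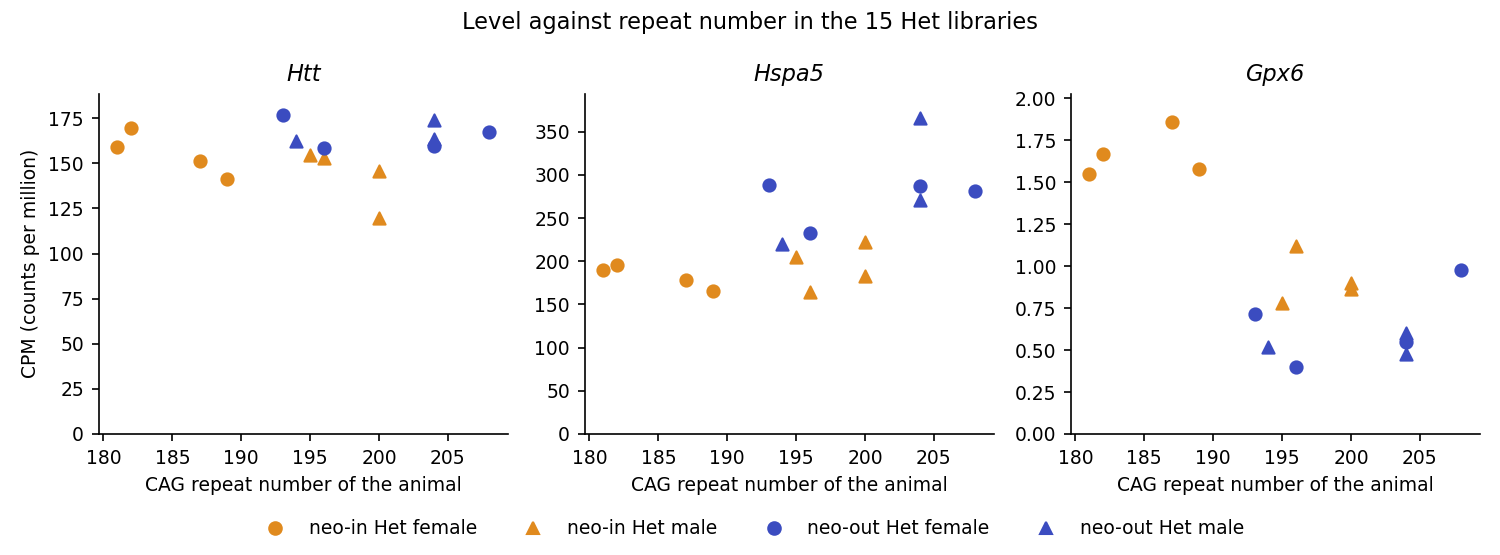
Level of Htt, Hspa5 and Gpx6 in CPM against the CAG repeat number of the animal in the 15 Het libraries; orange marks neo-in and blue neo-out mice, circles females and triangles males. Neo-in females sit at 181 to 189 repeats, apart from all other animals. At 193 to 200 repeats the neo-in mice are all males and the neo-out mice are of both sexes. Hspa5 there was at 165 to 222 CPM in neo-in and 219 to 288 CPM in neo-out mice.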

How the data were processed

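Polyadenylated RNA of left striatum, cortex and liver was sequenced. The submitters' processing notes name CASAVA 1.8.2 and the mm10 genome, while aligner, counter and strand setting are not given in the sources used. The authors deposited expected counts per gene, FPKM values and alignment counts, per the file headers, and a table with the CAG repeat number (another kind of value) of each animal, deposited per sample. Expected counts were rounded to whole numbers (32.5% of striatum values over 1 were not whole), and 1572 of 39179 gene IDs had no name in GENCODE M21, with at most 0.328% of a library's counts. Checked by chi-square over 45 pairs, no 2 striatum libraries of the same line, genotype and sex agreed within sampling noise. Other pairs were not checked. Gene totals limit precision by counting error and by the spread between animals.

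Tests used edgeR 4.0.16 in R 4.3.3 (quasi-likelihood, TMM, filterByExpr with a count minimum of 10) on all 31 striatum libraries in 8 cells of line, genotype and sex. The line difference is the mean over sexes, and p-values were Benjamini-Hochberg adjusted over all genes tested. Standard errors were derived from the F statistic. CPM use TMM library sizes, and log2 CPM a prior count of 2. Alternatives were DESeq2 1.42.0, limma 3.58.1 on log2(FPKM + 0.1), other normalization, no filter, no sex term, a replicate block, a liver clock covariate, Het libraries only without and with CAG number, and each Het library left out. The fits were tested on simulated data. Promoters came from RefSeq. Named genes were Htt, the 12 highest and 12 lowest called log2 changes (mean CPM of 1 or more, equal sign in females and males), from each list up to 4 members by smallest unadjusted p, and up to 5 called genes per direction of other contrasts; Dusp18, Slco1b2 and 0610038B21Rik, and other list members, were named after their values were seen. Members and lists were chosen with earlier results of these data known.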

Additional observations from a re-analysis of the deposited data

Results flagged for a closer look

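Single libraries stood apart from their group for several named genes, by a gap test that chance alone meets in about 1 in 20 groups. Many genes and groups were searched, so gaps like these also arise by chance, and which of them do was not tested. Neo-out Het male 3 was the highest of its group for Hspa1b (30.2 CPM, next 13.1), Chordc1 (101 CPM, next 72.6) and Dnajb4 (127 CPM, next 96.5). Neo-out Het male 2 was the lowest of its group for Slfn5 (6.58 CPM, next 9.33) and Creld2 (9.47 CPM, next 11.9). Scn4b was highest in neo-in Het female 2 (841 CPM, next 740) and, in the other group, in neo-out Het female 1 (807 CPM, next 637).

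A difference between 2 groups' line effects passed its own test for 5 genes. Nr1d1 differed between Het and WT striatum, by 0.62 on the log2 scale. Between Het females and males the line effect differed by -2.89 for Apold1, -0.92 for Ccdc117, -0.74 for Fbxo30 and 0.77 for Gm21781. Their causes were not tested.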

How the results depend on the processing

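The 67 Het calls became 181 with DESeq2 (112 higher, 69 lower, 65 shared), 31 with no filter, 6 with no sex term, 0 with the Het libraries alone (2022 genes at an unadjusted p under 0.05) and 0 with CAG number added (1253), and 1 without the 2 males high in Hspa1b, a setting chosen after seeing the data (1360). RLE normalization gave 59, FPKM with limma 45, the clock covariate 74 and the replicate block 55. Same-numbered animals did not deviate together (correlations -0.322 to 0.251; 2 of 7 correlated best with their own number), so the numbers do not pair the samples. Leaving out 1 Het library gave 13 (neo-out male 3) to 194 (neo-in male 1); 122 passed without neo-out male 2, 15, 16 and 35 without neo-in females 2, 3 and 4, 22 and 19 without neo-in males 2 and 4, 34, 34 and 21 without neo-out females 1, 3 and 4, and 21 without neo-out male 4. The sex test gave 59 with DESeq2, 0 without the 2 males and 0 to 29 with 1 library left out (0 without neo-out male 3, 29 without neo-out male 2). The WT count of 83 became 194 with DESeq2, 55 with FPKM, 0 with the clock covariate (887 at an unadjusted p under 0.05) and 14 without WT libraries high in cortical or choroid plexus markers, also chosen after seeing the data. The test between genotypes gave 3 with DESeq2 and 0 with the clock covariate (557). Het cortex gave 399 and liver 680 with DESeq2. The exact permutation p of Htt ran from 0.00653 to 0.0524, with differences of 0.117 to 0.180. Hspa1a turned to -0.22 without the 2 males. The causes were not tested, beyond fewer samples or genes where the setting itself removes them. Over the named genes, 980 of 1374 values kept their direction and side of the threshold, 376 kept the direction only and 17 newly passed.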

Other observations

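Some values lie outside the comparisons above. The neo-out Het animals numbered 8 with the one whose striatum was not analysed here, and their repeat numbers then ran from 179 to 208 (198 ± 9.36, SD, n = 8). In Het liver 7 of 15 measured immediate early genes passed as higher in neo-out mice, with a median of 0.98. Of all 15208 liver genes tested, 1.05% passed as higher. The liver fit included the neo-out males. Their livers held 17.4 to 325.5 CPM of Hspa1b, against 2.17 to 8.64 CPM in the other Het livers. Whether the difference of the immediate early genes rests on these males was not tested. In Het striatum 0 of 18 immediate early genes passed. Interferon-responsive genes had a positive female minus male line difference in Het striatum in 18 of 19 cases, with a median of 0.54 and 0 passing.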
